A study of Bos taurus with 16 samples.

Results

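The tumour necrosis factor (TNF) superfamily comprises ligands, most of them trimers made as membrane proteins, and the receptors that bind them. Its members were followed in the endometrium, the inner layer of the uterine wall, in 4 fertile cows after parturition. They were chosen by name, with earlier results of these data known. The rule took probes that are not array controls and that the array design names TNF, LTA, LTB, LTBR, CD40, CD40LG, FAS, FASLG, CD27, CD70 or EDAR, or with a TNFSF or TNFRSF number. This gave 54 probes of 34 genes, out of 43653 probes and 16372 named genes on the array; LTB and EDAR had no probe under those names. By role there were 14 ligands, 5 receptors with a death domain, 13 receptors that signal by binding TRAF adaptors, and 2 soluble decoy receptors.

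The study biopsied the uterine horns of the same cows with forceps at nominal days 10, 30, 50 and 100 after parturition (true days 9 to 10, 29 to 30, 49 to 51 and 99 to 100), with several tissue pieces per biopsy, and names no treatment. Each of the 16 one-colour arrays is 1 cow at 1 time, so each time has 4 arrays. Each cow had a slide of its own, so cow and slide cannot be told apart, and every difference between times was taken within cows. The RNA is that of whole tissue, in which fewer cells of a type and less RNA per cell cannot be told apart.

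TNF superfamily receptors carry extracellular cysteine-rich repeats. Death domain receptors can start apoptosis through FADD and caspase-8, and TNF receptor 1, which also has a death domain, more often activates NF-kB through TRADD and RIPK1. The TRAF-binding receptors activate NF-kB and support the survival and costimulation of immune cells. After calving the uterus is commonly colonised by bacteria, and macrophages, neutrophils and lymphocytes enter the endometrium while it regresses; TNF from macrophages is a known part of that inflammation.

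The sequences of 7 member probes are given here as the array design holds them, to show cysteine codons in receptor probes and stretches of letters that ligand probes share, 5′ to 3′, with their positions on bovine build Btau_3.1. The first pair are receptor probes that span more than their own 60 bases on the genome, as 4 of the member probes do. Capitals mark TGT and TGC, the codons of cysteine, in the stop-free reading frame that holds most of them: 4 in CD27 and 2 in CD40. The CD27 probe lies at chr5:110723228-110725863 on the minus strand and the CD40 probe at chr13:75619845-75622705 on the plus strand.
CD27: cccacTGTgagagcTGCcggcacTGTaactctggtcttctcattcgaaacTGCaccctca
CD40: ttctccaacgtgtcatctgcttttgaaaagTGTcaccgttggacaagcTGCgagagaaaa
The next pair, 1 ligand probe each, share a stretch that is written ANTGGNCTGTANTTNGTNTANTCCNAAGTG, in capitals, with N at positions where they differ, and is found in 2 of all 43653 probes on either strand (0.00458%). FASLG is at chr16:36827172-36827231, plus strand, and LTA at chr23:27536148-27536207, minus strand.
FASLG: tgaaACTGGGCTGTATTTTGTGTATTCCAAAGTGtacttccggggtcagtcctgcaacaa
LTA: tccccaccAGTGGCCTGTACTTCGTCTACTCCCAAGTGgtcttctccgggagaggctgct
The last 3, also ligands, share TTNGGNGCNTT, which 37 of all probes (0.0848%) hold as printed and 81 (0.186%) on either strand. The TNFSF10 probe is at chr1:97117828-97117887, the TNFSF11 probe at chr12:11488392-11488451 and the TNFSF14 probe at chr7:16386527-16386586, all on the plus strand. The TNFSF11 and TNFSF14 probes end in a stop codon.
TNFSF10: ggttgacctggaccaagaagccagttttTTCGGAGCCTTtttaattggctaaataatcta
TNFSF11: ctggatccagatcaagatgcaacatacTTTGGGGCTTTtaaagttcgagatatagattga
TNFSF14: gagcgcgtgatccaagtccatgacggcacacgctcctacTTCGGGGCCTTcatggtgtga
Both shared stretches were chosen after the sequences were seen, and a match is a likeness of letters only. Positions relative to exons and untranslated regions were not analysed here.

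A level in the text is the log2 processed signal of a probe relative to the 75th percentile of its array. A gene is represented by its probe with the highest mean level. Levels of different probes were compared only for that choice, to name the members highest and lowest by mean level, and in summed marker signals. Between 61.2% and 77.0% of probes were well above background on an array. Of the representative probes, 30 cleared background on 4 or more of the 16 arrays and were tested, and 18 cleared it on all 16. TNFRSF11A and LTA were not well above background on any array, TNFSF11 and TNFRSF8 on 3 arrays each, and these 4 were not tested.

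Of the 30 tested members, 1 passed the test in any comparison of 2 times. TNFRSF13C, the receptor for the B cell survival factor BAFF, rose at day 100 relative to day 10. No member passed at day 30 or day 50 relative to day 10, or in any of the 3 differences among the later times (limma, threshold 0.05 on the adjusted p). The background was 4.87% of 13206 named genes called at day 100 minus day 10 in either direction and 1.78% called higher, and 1 of 30 members is close to these shares. It was 0.492% at day 30 minus day 10, 2.01% at day 50 minus day 10, and 0.0% for each difference among days 30, 50 and 100. The F test over the 4 times called 0 members and 1.08% of all named genes; 7 members had an unadjusted F p under 0.05, against 19.1% of all named genes.

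Below the adjusted threshold, the members' differences from day 10 were mostly negative. At day 30, 9 members had an unadjusted p under 0.05 and a lower level, against 8.49% of all named genes; 0 were higher, against 5.97%. At day 50 it was 8 lower (10.3% of all named genes) and 0 higher (9.4%). At day 100 it was 7 lower (13.1%) and 1 higher (12.6%). The median difference of the 30 members was -0.78 at day 30, -0.51 at day 50 and -0.66 at day 100, while that of all named genes was 0.02, -0.03 and 0.00. In all, 27 of 30 members had a negative difference at day 30, 21 at day 50 and 21 at day 100. These 3 differences share the day 10 arrays, and genes of 1 tissue are not independent, so the counts describe the set and carry no p.

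Counts over cows and counts of groups that did not overlap differed in how they stood to all named genes. At day 30, 9 members were lower in 4 of 4 cows (12.8% of all named genes), at day 50, 10 (19.0%), and at day 100, 7 (14.9%). Levels at the 2 times did not overlap, with the later time lower, for 2 members at day 30 (TNFRSF1A and TNFRSF1B; 4.94% of all named genes), for 0 at day 50 (8.38%) and for 1 at day 100 (CD40; 5.89%). The counts of members lower in 4 of 4 cows were above those shares of all named genes, while the counts without overlap were near or below theirs. Among the later times, the unadjusted p was under 0.05 for 1 member at day 50 minus day 30 (4.98% of all named genes), 2 at day 100 minus day 30 (6.68%) and 1 at day 100 minus day 50 (1.08%), counting higher levels at the later time, and 0 were lower.

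**Figure D1:**
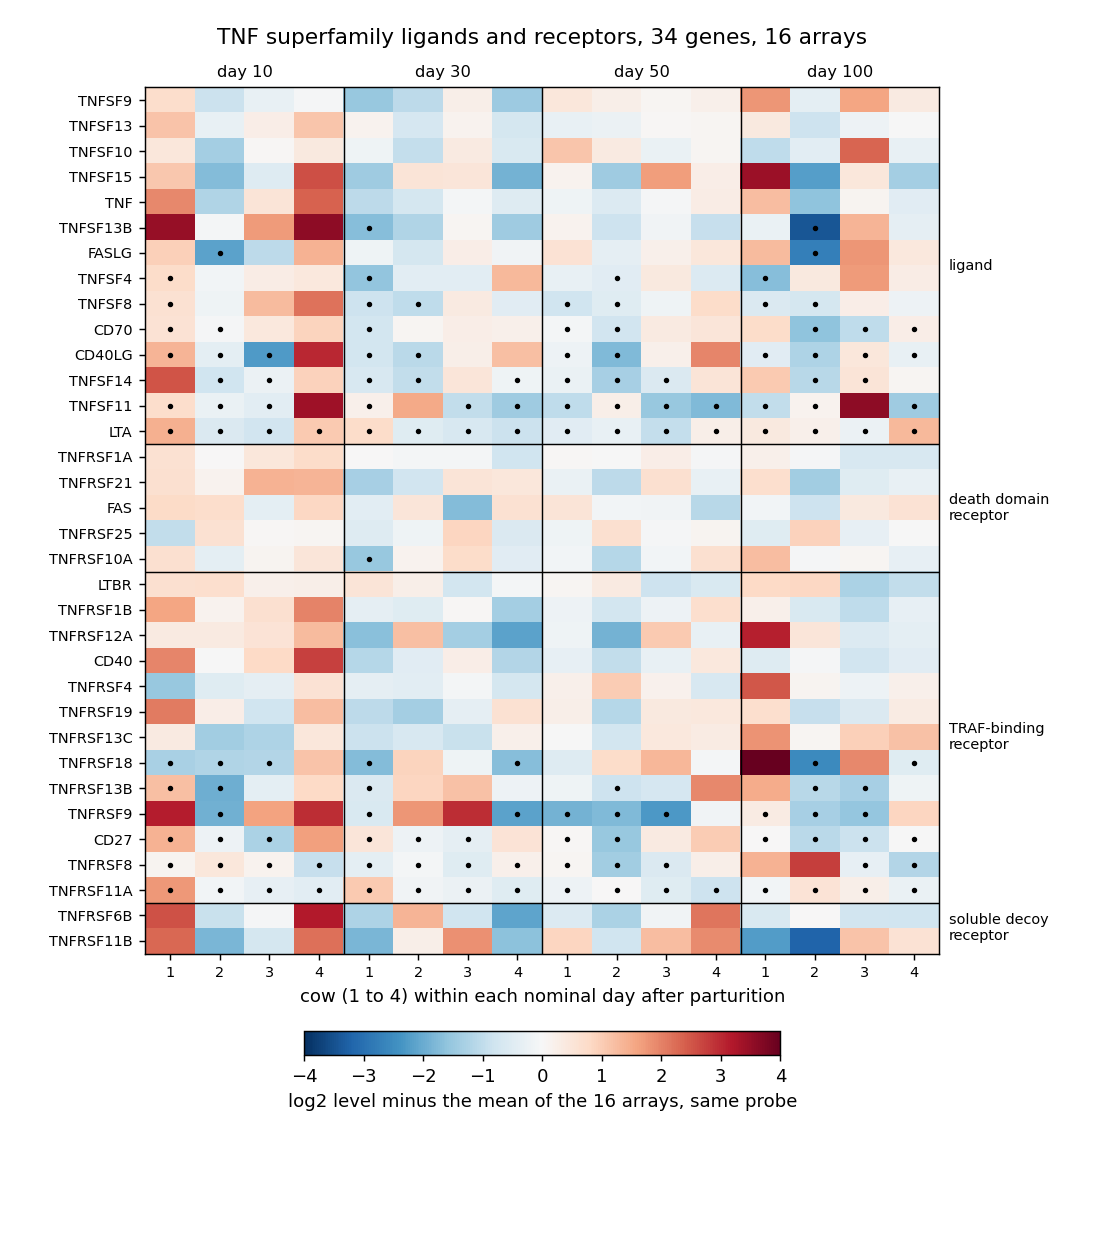
Log2 level of the representative probe of each of the 34 members on each of the 16 arrays, minus the mean of that probe over the 16 arrays; rows are grouped by role, columns by nominal day and cow, and a black dot marks a probe not well above background on that array. Red cells gather in cows 1 and 4 at day 10, and the rows of dots at LTA and TNFRSF11A are the 2 members not measured above background on any array.

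The 4 cows did not share 1 level at day 10. In 23 of the 30 tested members the 2 highest day 10 levels were those of cows 1 and 4, against 29.4% of all named genes, a count made after the values were seen. Of all arrays, that of cow 1 at day 10 had the fewest probes well above background (61.2%) and the most nonuniform spots (125). Its lowest level well above background, -4.91, was also the highest of any array. The day 10 array of cow 4 did not share this (73.8%, 4 spots and -7.44). The part of array quality in the day 10 pattern was not tested. The median SD between cows at day 10 was 0.997 over the members and 0.404 over all named genes. At days 30, 50 and 100 it was 0.732, 0.665 and 0.972 over the members, against 0.448, 0.328 and 0.636 over all named genes. Most cell type marker lists, immune or not, also had cows 1 and 4 as their high pair at day 10, as given after the members. The stromal fibroblast list was at 0.81, 0.15, 0.20 and 0.55 in cows 1 to 4, and the endothelial list at 0.55, -0.97, 0.33 and 0.66. The smooth muscle list had cows 1 and 4 as its low pair, and the erythroid list had neither split.

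Among the ligands, TNFSF13B had the most negative differences from day 10. It encodes BAFF, which B cells need to survive and which myeloid cells release. Its log2 level in cows 1 to 4 was -0.51, -4.06, -2.29 and -0.40 at day 10, -5.70, -5.18, -3.91 and -5.39 at day 30, -3.85, -4.81, -4.14 and -4.92 at day 50, and -4.26, -7.40, -2.62 and -4.36 at day 100. Each cow was lower at each later time than at day 10, and the groups overlapped, since cow 2 at day 10 lay below the highest array of each later time. The difference was -3.23 ± 0.77 at day 30, -2.61 ± 0.77 at day 50 and -2.84 ± 0.77 at day 100 (SE, 4 cows), with adjusted p = 0.0966, 0.106 and 0.0579. A second probe gave -3.17, -2.65 and -2.36.

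TNFSF13 encodes APRIL, a relative of BAFF that supports plasma cells. Its level was -1.51, -2.97, -2.40 and -1.54 at day 10, -2.53, -3.34, -2.52 and -3.36 at day 30, -2.97, -2.89, -2.62 and -2.60 at day 50, and -2.27, -3.49, -2.87 and -2.68 at day 100. Cows 1 and 4 were the high arrays of day 10, and the groups overlapped. Its differences of -0.83, -0.66 and -0.72 (each SE 0.29) had adjusted p = 0.242, 0.253 and 0.151.

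TNF itself, the inflammatory cytokine that names the family, was well above background on all 16 arrays. Its level was -1.42, -4.55, -2.83 and -0.99 at day 10, -4.38, -4.03, -3.40 and -3.86 at day 30, -3.50, -3.89, -3.37 and -3.05 at day 50, and -2.11, -4.96, -3.23 and -3.78 at day 100. Only cows 1 and 4 at day 10 and cow 1 at day 100 stood above -2.83, and cow 2 was higher at days 30 and 50 than at day 10. The difference of -1.47 ± 0.57 (SE) at day 30 had an unadjusted p of 0.0255 and an adjusted p of 0.289, and those of -1.004 at day 50 and -1.07 at day 100 had adjusted p = 0.376 and 0.261. A second TNF probe, at chr23:27532093-27532152, gave -1.05, -0.55 and -0.78 and was well above background on 5 arrays.

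TNFSF8, or CD30 ligand, is a costimulator of activated lymphocytes. It measured -5.50, -6.28, -4.85 and -3.93 at day 10, -6.94, -7.11, -5.75 and -6.56 at day 30, -6.91, -6.59, -6.28 and -5.37 at day 50, and -6.69, -6.80, -5.83 and -6.32 at day 100. It was lower in 4 of 4 cows at each later time, close to the limit of detection: 9 of the 16 arrays were well above background. The differences were -1.45, -1.15 and -1.27 (each SE 0.33), with adjusted p = 0.0839, 0.0978 and 0.0508. The day 100 difference passed without the day 10 or the day 100 array of cow 2 (adjusted p = 0.0412 and 0.0469) or without the day 30 array of cow 4 (0.0363), and turned positive, at 0.29, with normexp background correction, under which the median of all probes was 0.25. In all it passed in 4 of 28 alternative fits, with adjusted p up to 0.61 over them.

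TNFSF9, a ligand that costimulates T cells, ran the other way among the later times. Its level was -1.52, -3.07, -2.52 and -2.26 at day 10, -3.74, -3.28, -1.97 and -3.68 at day 30, -1.75, -1.99, -2.14 and -2.01 at day 50, and -0.46, -2.60, -0.64 and -1.87 at day 100. Day 100 was higher than day 30 in 4 of 4 cows, with overlapping groups. That difference was 1.77 ± 0.45 (SE, unadjusted p = 0.00208, adjusted p = 0.259), and day 50 minus day 30 was 1.19 (adjusted p = 0.501).

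The 2 ligands best known for killing cells differed little between times relative to their spread. FASLG, the ligand of the death receptor FAS on cytotoxic lymphocytes, measured -3.79, -6.90, -5.80 and -3.37 at day 10, -4.92, -5.45, -4.50 and -4.88 at day 30, -4.16, -5.11, -4.55 and -4.28 at day 50, and -3.48, -7.47, -2.99 and -4.33 at day 100. TNFSF10, or TRAIL, measured -2.34, -4.15, -2.76 and -2.41 at day 10, -2.96, -3.75, -2.43 and -3.39 at day 30, -1.67, -2.43, -3.05 and -2.73 at day 50, and -3.81, -3.21, -0.48 and -3.08 at day 100. For both genes the highest array of all was cow 3 at day 100, and each difference from day 10 was smaller than its SE. FASLG gave 0.03, 0.44 and 0.40 (SE 0.66) at days 30, 50 and 100, TNFSF10 gave -0.22, 0.45 and 0.27 (SE 0.60), and the adjusted p ran from 0.733 to 0.991. The FASLG probe printed above was well above background on 1 array, and another FASLG probe disagreed in sign at day 50 (-0.78).

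CD40LG, which activated T cells use to stimulate B cells and macrophages through CD40, was well above background on 5 arrays. Its levels of -5.52, -7.27, -9.13 and -3.84 at day 10 spanned those of day 30 (-7.61, -7.95, -6.64 and -5.67), day 50 (-7.06, -8.62, -6.65 and -4.92) and day 100 (-7.32, -8.09, -6.43 and -7.15). TNFSF11, or RANKL, the osteoclast factor, measured -7.21, -8.16, -8.33 and -4.52 at day 10, -7.71, -6.39, -8.88 and -9.32 at day 30, -8.92, -7.66, -9.42 and -9.65 at day 50, and -8.88, -7.75, -4.31 and -9.31 at day 100. It was well above background in cow 4 at day 10, cow 2 at day 30 and cow 3 at day 100 and on no other array. LTA, the lymphotoxin that shares both TNF receptors, measured -7.03, -9.03, -9.20 and -7.40 at day 10, -7.70, -8.92, -9.10 and -9.30 at day 30, -8.91, -8.75, -9.40 and -8.22 at day 50, and -8.05, -8.25, -8.68 and -7.16 at day 100. None of these LTA values was well above background.

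The other 4 ligands were TNFSF15, known as TL1A, TNFSF4, the ligand of the T cell costimulator OX40, TNFSF14, known as LIGHT, and CD70, the ligand of CD27. TNFSF15 ranged from -5.42 (cow 2, day 100) to 0.21 (cow 1, day 100), so its lowest and highest arrays came from the same time. TNFSF4 ranged from -7.66 to -4.25 with 12 arrays well above background, CD70 from -8.00 to -5.52 with 8, and TNFSF14 from -8.29 to -4.43 with 6. None of these had an unadjusted p under 0.05 for any difference.

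**Figure D2:**
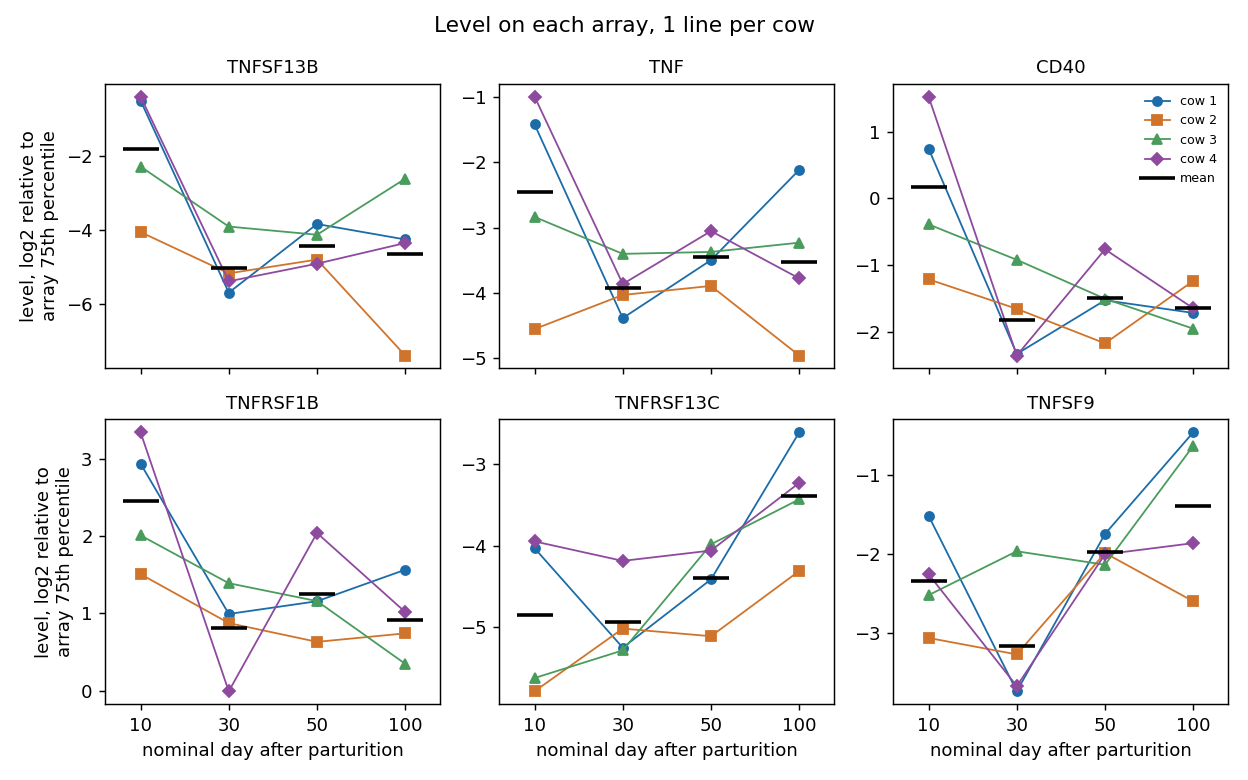
Log2 level relative to the array's 75th percentile (vertical axis) at nominal days 10, 30, 50 and 100 (horizontal axis) for 6 members, with 1 coloured line per cow and a black bar at the mean of the 4 cows. TNFSF13B, TNF, CD40 and TNFRSF1B have cows 1 and 4 at the top at day 10; TNFRSF13C has its highest mean at day 100, where cow 1 reached -2.60.

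The death domain receptors were measured on all 16 arrays except TNFRSF10A, on 15. TNFRSF1A, the main receptor of soluble TNF, was well above background throughout. It measured 2.61, 2.02, 2.45 and 2.73 at day 10, 2.01, 1.93, 1.92 and 1.20 at day 30, 2.07, 1.98, 2.28 and 1.97 at day 50, and 2.20, 1.96, 1.36 and 1.38 at day 100. It was lower than at day 10 in 4 of 4 cows at each later time, and the day 30 levels lay just below those of day 10, with cow 1 at day 30 at 2.01 and cow 2 at day 10 at 2.02. The differences of -0.68 ± 0.25, -0.38 ± 0.25 and -0.73 ± 0.25 (SE) had adjusted p = 0.264, 0.455 and 0.106.

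TNFRSF21, or death receptor 6, measured 2.41, 1.93, 3.15 and 3.12 at day 10, 0.45, 1.00, 2.30 and 2.22 at day 30, 1.51, 0.74, 2.42 and 1.49 at day 50, and 2.45, 0.38, 1.30 and 1.47 at day 100. All cows were lower at days 30 and 50 than at day 10, and on this probe cow 1 at day 100 was back at its day 10 level. Its differences of -1.16, -1.12 and -1.25 (each SE 0.41) had adjusted p = 0.244, 0.178 and 0.0918. Without the day 100 array of cow 1 the day 100 difference was -1.75 and passed (adjusted p = 0.0213). In all it passed in 2 of 28 alternative fits, with adjusted p up to 0.344 over them. Both other TNFRSF21 probes gave negative differences at each time, the largest -2.39 at day 100 (adjusted p = 0.0505). On both, day 100 was lower than day 10 in 4 of 4 cows, cow 1 included.

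FAS, the receptor of FASLG, measured 1.06, 0.99, -0.10 and 1.12 at day 10, -0.13, 0.77, -1.44 and 0.89 at day 30, 0.81, 0.18, 0.16 and -0.80 at day 50, and 0.19, -0.54, 0.69 and 0.86 at day 100. Cow 3 was the low array at days 10 and 30, and the groups overlapped. Its differences of -0.75, -0.68 and -0.47 (each SE 0.53) had adjusted p = 0.546, 0.523 and 0.597. TNFRSF25, the receptor of TNFSF15, ranged from -4.05 to -2.14, and TNFRSF10A, a TRAIL receptor whose name is that of the array design only, from -5.48 to -2.74; neither had an unadjusted p under 0.05.

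Of the TRAF-binding receptors, TNFRSF13C alone passed. The BAFF receptor is a marker of mature B cells. It measured -4.03, -5.80, -5.63 and -3.95 at day 10, -5.26, -5.02, -5.29 and -4.19 at day 30, -4.42, -5.12, -3.98 and -4.06 at day 50, and -2.60, -4.31, -3.43 and -3.23 at day 100. Day 100 was the highest time of each cow, yet cow 2 at day 100 lay below cows 1 and 4 at day 10, so the groups overlapped. At day 100 minus day 10 it rose by 1.46 ± 0.37 on the log2 scale (SE, unadjusted p = 0.00207, adjusted p = 0.0477), higher in 4 of 4 cows. Day 100 minus day 30 was 1.55 (adjusted p = 0.259) and day 100 minus day 50 was 1.00 (adjusted p = 0.912).

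The TNFRSF13C call was close to the threshold. It was lost when any 1 of the 4 cows was left out (adjusted p = 0.0927 to 0.226), and when any 1 of 12 of the 16 arrays was left out. The 4 arrays that could be left out with the call kept were those of cows 1, 2 and 4 at day 30 and of cow 2 at day 100. Without the cow as a block the adjusted p was 0.0937. The called probe lies at chr5:120058056-120058115 on the minus strand and cleared background on each of the 16 arrays. The other TNFRSF13C probe, at chr5:120058541-120058600, was well above background on 2 arrays and was not tested.

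The nearest marker list joins B cell and plasma cell markers, so it does not measure mature B cells alone. Their mean level, relative to all 16 arrays, was 0.93, 0.04, 0.19 and 0.91 in cows 1 to 4 at day 100 and 0.59, -0.92, -0.84 and 0.69 at day 10. Each cow was higher at day 100, and 0 of 7 tested markers passed (limma; 2 had an unadjusted p under 0.05). Their summed signal, in which the brightest markers weigh most, ran from 5.65 to 5.72 on the log2 scale at day 100 and from 4.57 to 5.85 at day 10. Detection of the 8 markers with a probe was nearly the same at both times. CD79A, BLK, JCHAIN, XBP1 and MZB1 were well above background on 4 of 4 arrays at day 100 and at day 10, CD79B on 1 at each time, MS4A1 on 4 at day 100 and 3 at day 10, and PAX5 on 1 at day 100 and 2 at day 10. The part of B cell content in the TNFRSF13C result was not tested.

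CD40, the receptor through which T cells activate B cells and macrophages, measured 0.74, -1.22, -0.39 and 1.52 at day 10, -2.34, -1.66, -0.92 and -2.36 at day 30, -1.53, -2.18, -1.51 and -0.77 at day 50, and -1.72, -1.24, -1.96 and -1.65 at day 100. It was lower in 4 of 4 cows at each later time. The day 100 and day 10 levels did not overlap, though those of cow 2 were close, at -1.24 and -1.22. The differences were -1.98, -1.66 and -1.81 (each SE 0.53), with adjusted p = 0.135, 0.131 and 0.0693. The day 100 difference passed without cow 2 (-2.40, adjusted p = 0.047), without its day 10 or its day 100 array (adjusted p = 0.046 and 0.04), and without the day 30 array of cow 4 (adjusted p = 0.05, just inside the threshold). In all it passed in 4 of 28 alternative fits, with adjusted p up to 0.223 over them. The CD40 probe printed above, on 12 arrays, gave -2.49, -2.04 and -2.37.

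TNFRSF1B, TNF receptor 2, is found mainly on immune and endothelial cells. It measured 2.94, 1.51, 2.01 and 3.34 at day 10, 0.99, 0.88, 1.39 and -0.01 at day 30, 1.16, 0.63, 1.16 and 2.04 at day 50, and 1.57, 0.74, 0.35 and 1.02 at day 100. Each cow was lower at each later time, and the day 30 levels lay below all those of day 10. The differences were -1.64, -1.20 and -1.53 (each SE 0.42), with adjusted p = 0.122, 0.163 and 0.0614. Without the day 30 array of cow 4 the day 100 difference had an adjusted p of 0.0232. That array lies outside the comparison, and the difference stayed at -1.53. Over all tested probes, 2389 were then called at day 100 minus day 10, against 1527 as reported. The TNFRSF1B difference at day 100 passed in 3 of 28 alternative fits, with adjusted p up to 0.222 over them. A second probe gave -1.48, -1.07 and -1.89.

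The other TRAF-binding receptors did not pass. LTBR, the lymphotoxin beta receptor, ranged from 0.66 to 2.75, and at day 50 minus day 10 gave -0.69 (unadjusted p = 0.0364, adjusted p = 0.234). TNFRSF19, which is expressed in skin and nervous tissue, gave -1.24 at day 30 minus day 10 (unadjusted p = 0.0236, adjusted p = 0.283). TNFRSF9, a T cell costimulator bound by TNFSF9, gave -2.97 at day 50 minus day 10 (adjusted p = 0.237) with 7 arrays well above background. These 3 differences were each smaller at the other later times.

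Single arrays set the range of several of the rest. TNFRSF12A, the receptor of the ligand TWEAK, ranged from -2.93 to 2.33, TNFRSF4, or OX40, from -3.29 to 0.71, and TNFRSF18, known as GITR, from -8.12 to -0.61. In all 3 the highest array was cow 1 at day 100. The neighbouring genes TNFRSF4 and TNFRSF18 therefore share their high array. A second TNFRSF18 probe is placed on the opposite strand of the genome to the first, and it was not well above background on any array. TNFRSF13B, the TACI receptor that binds BAFF and APRIL, ranged from -8.13 to -4.26 with 10 arrays well above background, and CD27, a T and B cell costimulator, from -8.66 to -5.50 with 4. TNFRSF8, or CD30, ranged from -8.62 to -4.48. TNFRSF11A, or RANK, the member with the lowest mean level, measured -6.80, -8.66, -8.87 and -8.97 at day 10, -7.52, -8.71, -8.79 and -9.03 at day 30, -8.74, -8.53, -9.04 and -9.36 at day 50, and -8.67, -7.99, -8.31 and -8.80 at day 100, with no array well above background.

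The soluble decoy receptors had wide spreads. TNFRSF11B, or osteoprotegerin, which binds RANKL and TRAIL, measured 0.51, -3.58, -2.46 and 0.43 at day 10, -3.61, -1.54, 0.07 and -3.43 at day 30, -0.92, -2.58, -0.55 and 0.13 at day 50, and -4.00, -4.98, -0.63 and -1.20 at day 100. The order of the cows turned round between days 10 and 30: cows 1 and 4 were low at day 30 and high at day 10. Its differences of -0.85, 0.30 and -1.43 (each SE 1.08) had adjusted p = 0.747, 0.914 and 0.421. TNFRSF6B, or decoy receptor 3, which binds FASLG and LIGHT, ranged from -2.30 (cow 4, day 30) to 2.99 (cow 4, day 10), with adjusted p = 0.423, 0.584 and 0.300 at days 30, 50 and 100.

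**Figure D3:**
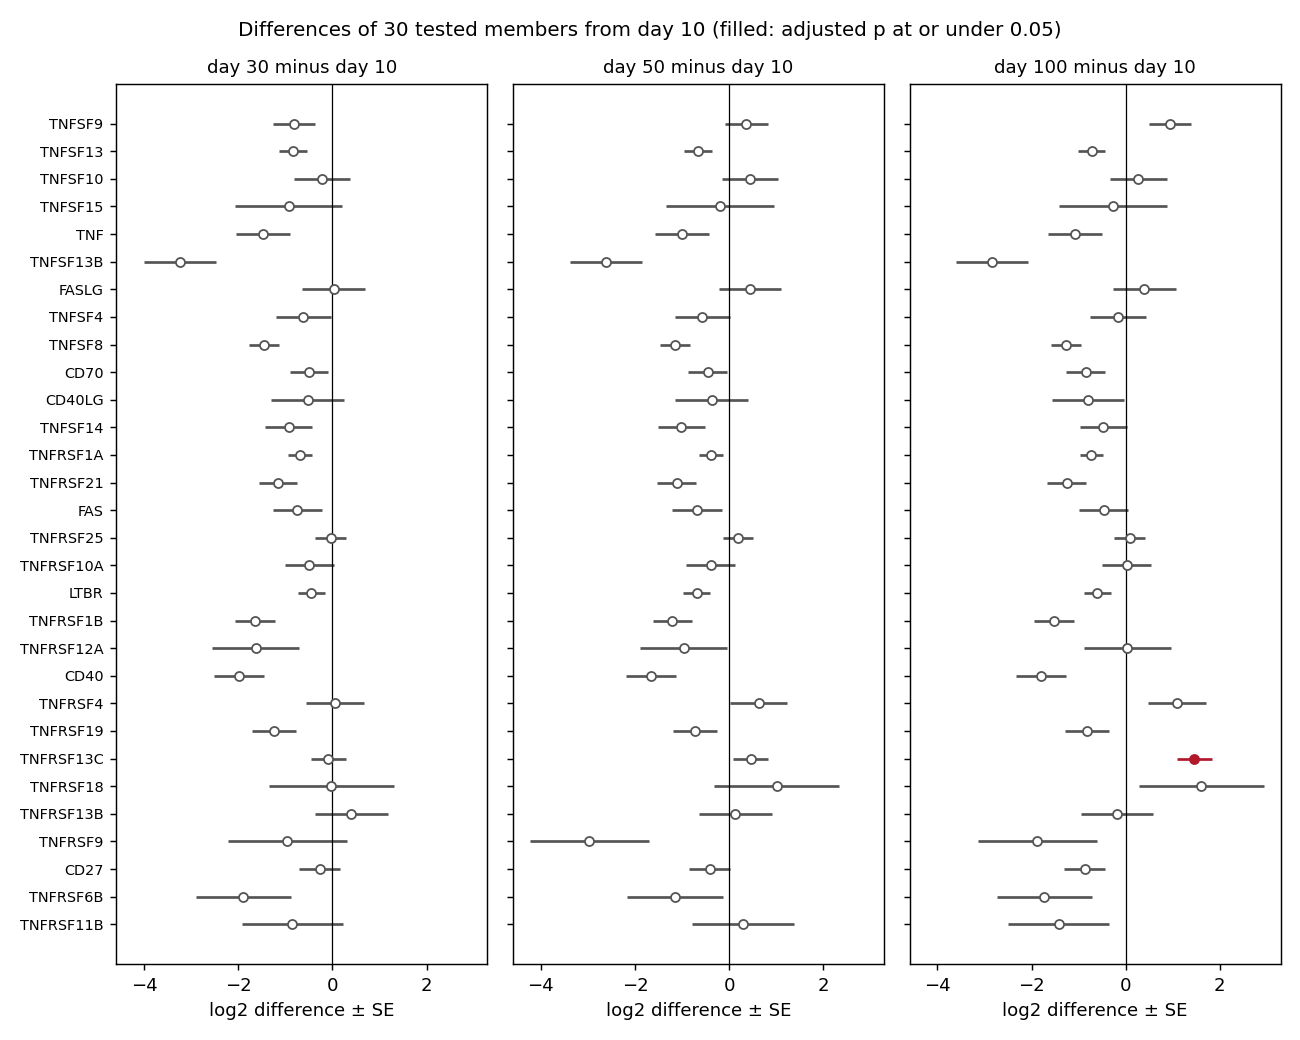
Log2 difference from day 10 with its SE (horizontal axis) for the 30 tested members, at days 30, 50 and 100; a filled red point marks an adjusted p at or under 0.05. At day 30, 27 of 30 points lie left of 0, and the 1 filled point is TNFRSF13C at day 100, at 1.46.

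Of the 12 members with more than 1 tested probe, the other probes gave the sign of the representative one in 36 of 42 comparisons with day 10 and the opposite sign in 6. The 6 were in FASLG, TNFRSF12A, TNFRSF25, TNFSF10 and TNFSF15. None of the other probes passed for any of the 3 differences from day 10.

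Several members lie side by side in the genome, by the probe positions on Btau_3.1. TNF and LTA are 3996 bases apart on chromosome 23, and TNFRSF4 and TNFRSF18 are 6844 bases apart on chromosome 16. CD27 lies 39259 bases from LTBR on chromosome 5, and LTBR 59954 bases from TNFRSF1A. TNFSF9 lies 53451 bases from CD70 on chromosome 7, and TNFSF14 lies 65602 bases from CD70. TNFRSF1B and TNFRSF8 are 63070 bases apart on chromosome 16, and TNFSF8 and TNFSF15 are 117169 bases apart on chromosome 8. The representative probes of neighbours were not alike in detection: TNF was well above background on all 16 arrays and LTA on none, TNFRSF1A and LTBR on all 16 and CD27 on 4. Detection also differed between probes of 1 gene, since the other TNF probe cleared background on 5 arrays.

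A list of 78 genes, called the downstream list, was also followed. It held signalling genes, feedback and NF-kB target genes, and other superfamily receptors, ligands and linked genes, not all of them downstream of the receptors. It was written with earlier results of these data known, so its counts describe the list and carry no p. Of its 78 genes, 70 were tested. None passed at day 30 minus day 10 (limma; 0.492% of all named genes passed), where 27 had an unadjusted p under 0.05 and were lower (8.49% of all named genes), 3 fell at day 50 minus day 10 (1.29% of all named genes fell), and 6 fell and 1 rose at day 100 minus day 10 (3.09% of all named genes fell and 1.78% rose). The median difference of the list was -0.61, -0.38 and -0.32 at days 30, 50 and 100. By kind, 5 of 25 tested feedback and NF-kB target genes fell at day 100 and 0 rose, and 1 of 36 death receptor and NF-kB signalling genes rose and 0 fell. Of the 9 remaining genes (superfamily receptors and ligands that are not members, the sheddase and linked genes), 1 fell.

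ICAM1, an adhesion molecule for leukocytes that NF-kB induces, measured -0.79, -1.94, -1.51 and -0.89 at day 10, -3.13, -3.68, -2.45 and -3.70 at day 30, -2.76, -3.34, -2.85 and -2.81 at day 50, and -4.38, -2.83, -3.73 and -2.97 at day 100. All arrays of the later times lay below all those of day 10. At day 100 minus day 10 it fell by 2.19 ± 0.41 (SE, adjusted p = 0.0188, lower in 4 of 4 cows). TNFAIP8L2, a brake on innate immune signalling, measured 0.35, -1.09, -0.69 and 0.85 at day 10, -2.46, -2.33, -1.11 and -1.90 at day 30, -1.84, -2.83, -1.39 and -0.60 at day 50, and -2.49, -2.24, -1.88 and -1.91 at day 100. The day 100 levels lay below all those of day 10, and it fell by 1.99 ± 0.40 (adjusted p = 0.0228, 4 of 4 cows).

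PLAU, the urokinase plasminogen activator, measured 3.78, 3.05, 3.77 and 4.24 at day 10, 0.53, 2.98, 1.75 and 1.19 at day 30, 0.66, 0.54, 0.96 and 1.37 at day 50, and 0.40, 1.63, 1.27 and -0.56 at day 100. The later levels all lay below those of day 10, with cow 2 at day 30 the nearest. It fell by 2.83 ± 0.53 at day 50 (adjusted p = 0.0303) and fell by 3.03 ± 0.53 at day 100 (adjusted p = 0.0146). CXCL8, the neutrophil chemokine, measured 2.49, -2.77, -1.89 and 2.35 at day 10, -5.97, -3.90, -4.55 and -4.93 at day 30, -5.49, -5.28, -5.11 and -6.09 at day 50, and -2.71, -4.93, -4.72 and -5.63 at day 100. The day 50 levels lay below all those of day 10, and cow 1 at day 100 was just above cow 2 at day 10. It fell by 5.54 at day 50 and fell by 4.54 at day 100 (each SE 1.09, adjusted p = 0.0355 and 0.0405). The day 50 call was lost when any 1 of the 4 cows was left out (limma, adjusted p = 0.0556 to 0.183). CSF2, a growth factor of myeloid cells, measured -3.51, -5.04, -3.57 and -0.96 at day 10, -7.35, -4.34, -7.62 and -6.62 at day 30, -7.22, -7.95, -8.70 and -8.92 at day 50, and -8.63, -8.18, -7.80 and -7.63 at day 100. It was not well above background on any array of day 50 or day 100 and was at least 12.1-fold lower at day 50 and at least 9.85-fold lower at day 100 (adjusted p = 0.0242 and 0.0155); the bound takes the lowest signal well above background on each array.

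RELT, a receptor of the superfamily that has no TNFRSF number in the array design, measured -0.60, -0.71, -0.30 and 0.21 at day 10, -1.44, -0.86, -0.84 and -2.32 at day 30, -1.37, -1.80, -1.38 and -0.76 at day 50, and -1.74, -1.64, -2.37 and -1.63 at day 100. Every later array lay below every array of day 10. At day 100 it fell by 1.49 ± 0.38 (SE, adjusted p = 0.0498, 4 of 4 cows). The RELT call was lost when any 1 of the 4 cows was left out (limma, adjusted p = 0.0652 to 0.237). It was also lost for 14 of the arrays when each was left out alone. BIRC2, an inhibitor of apoptosis that is recruited to TNF receptors through TRAF2, measured 1.70, 1.70, 1.27 and 1.58 at day 10, 2.09, 2.02, 1.97 and 2.00 at day 30, 2.71, 2.50, 2.85 and 1.84 at day 50, and 2.97, 2.24, 3.25 and 2.57 at day 100. Every later array lay above every array of day 10, and at day 100 BIRC2 rose by 1.20 ± 0.25 (SE, adjusted p = 0.0264, 4 of 4 cows). The day 100 count of 7 was 0 without cow 1, 3 or 4 or without the day 10 array of cow 1, 8 without cow 2, 4 without the day 10 array of cow 3, 2 without the day 100 array of cow 3 or the day 10 array of cow 4, 3 without the day 100 array of cow 4, and 11 without the day 100 array of cow 2. The day 50 count of 3 was 0 without cow 1, 3 or 4 or without either the day 10 or the day 50 array of cow 1 or 3, the day 50 array of cow 2 or the day 10 array of cow 4. It was 1 without the day 50 array of cow 4 and 5 without the day 100 array of cow 1. Calls over all tested probes also swung. At day 100 minus day 10 there were 1527, and 75, 83 and 193 without cow 1, 3 or 4. Without cow 2 there were 1588, and without its day 100 array 3104. At day 50 minus day 10 there were 547, and 23, 21 and 149 without cow 1, 3 or 4. Without the day 100 array of cow 1 there were 937.

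Immune cell marker lists did not all move alike. Of 9 tested macrophage and monocyte markers, 6 fell at day 30 (0.485% of all named genes fell), 6 at day 50 (1.29%) and 9 at day 100 (3.09%), each relative to day 10. Their mean level relative to all arrays was between -1.50 and 0.80 on the arrays of days 30, 50 and 100, against 1.69, 1.06, 1.48 and 2.69 at day 10. Their summed signal, on the log2 scale relative to the 75th percentile, was between 4.00 and 5.66 for day 10, between 1.75 and 3.13 for day 30, between 1.62 and 3.61 for day 50, and between 1.98 and 3.13 for day 100. CD68, CSF1R and CD14 were well above background on all arrays, and MARCO on 2 arrays of day 10, 1 of day 30 and none of days 50 and 100. All 5 tested neutrophil markers had negative differences from day 10, with medians of -4.70, -5.14 and -3.26 at days 30, 50 and 100. Of these, 1 passed at day 50 (1.29% of all named genes fell) and 0 at days 30 and 100. Of 12 T and NK cell markers, 2 fell at day 100 (3.09%) and 0 at days 30 and 50.

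The neutrophil, dendritic cell and T and NK cell lists were higher in cows 1 and 4 than in cows 2 and 3 at day 10. So were the macrophage, B and plasma cell, epithelial, stromal fibroblast and endothelial lists. For neutrophils the mean marker level was 4.77, 0.56, -0.12 and 3.99 in cows 1 to 4 at day 10, the dendritic cell list at 1.98, -0.71, -0.84 and 1.76, and the T and NK cell list at 1.08, -0.98, -0.34 and 1.47. The mast cell list ran the other way in time: 2 of 4 tested markers rose at day 50 (0.727% of all named genes rose) and 1 at day 100 (1.78%), and the median difference from day 10 was 0.97, 2.21 and 1.12 at days 30, 50 and 100. Its mean level was -0.88, -2.15, -1.83 and 0.27 in cows 1 to 4 at day 10, so cows 1 and 4 were again the higher pair there. The B and plasma cell list had median differences from day 10 of -0.14, 0.10 and 0.34. The epithelial list stood at 2.27, -3.08, 0.57 and 0.51 at day 100 and at 0.82, -2.33, -0.72 and 0.75 at day 10. The smooth muscle list had the opposite split at day 10, with -1.60, 1.70, 1.31 and -1.71 in cows 1 to 4, so that cows 1 and 4, the high pair of the members, were its low pair. At day 100 it was -3.51 in cow 1 and 2.15 in cow 2, the 2 cows that held the highest and the lowest array of TNFSF15 and TNFRSF18. The part of cell make-up in the members' differences was not tested.

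**Figure D4:**
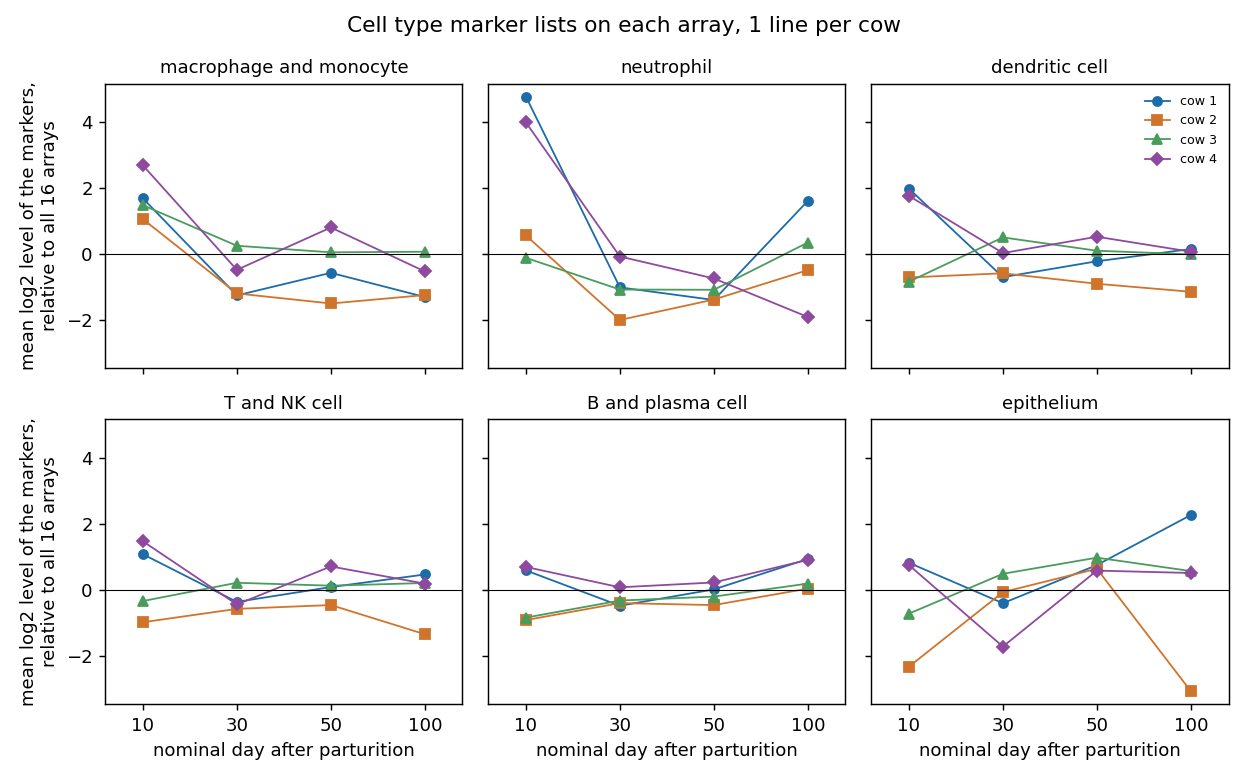
Mean log2 level of the tested markers of 6 cell types relative to their means over the 16 arrays (vertical axis) at nominal days 10, 30, 50 and 100 (horizontal axis), with 1 line per cow. All 4 cows have their highest macrophage level at day 10, while the neutrophil level at day 10 is 4.77 and 3.99 in cows 1 and 4 and 0.56 and -0.12 in cows 2 and 3.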

How the data were processed

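Endometrial RNA of 4 cows was measured at 4 times with 16 one-colour arrays. Per the file headers, the deposited scanner files hold the processed intensity of each spot, background-subtracted and detrended by Feature Extraction 11.5.1.1; the submitters' processing notes name 10.5.1.1 instead. A log2 table that the authors deposited served as an alternative. Its scale and direction were read from its correlation with the scanner values.

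From the deposited files, spots marked nonuniform (4 to 125 per array) were left out, log2 processed signals were set relative to the 75th percentile of their array, and spots of 1 probe were averaged. A probe was tested if it cleared background on 4 or more of 16 arrays (33182 of 43653). limma 3.58.1 in R 4.3.3 was fitted to the whole table with terms for time and cow (9 residual degrees of freedom), two-sided, with Benjamini-Hochberg adjustment over all tested probes and a threshold of 0.05. The cows are separate animals and each is biopsied at each time, so arrays are paired by animal: departures from each time's mean had a median r of 0.12 for arrays of 1 cow (24 pairs) and -0.04 for arrays of different cows (72 pairs). Script steps were tested on simulated data.

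Of the member probes, 36 were named by accession and 17 by symbol through RefSeq gene names of assembly ARS-UCD2.0, and 1 kept its file name. Coordinates are those of the files. Per-array values are given for called members, the 8 next by F test p, 12 genes of wide interest fixed by name (LTB had no probe), and the members with the highest and lowest mean level, and for up to 10 called genes of the downstream list. The members and all lists were chosen with earlier results of these data known. Alternatives were other backgrounds, normalizations, filters, weights and omitted cows or arrays. Precision is limited by having 4 arrays a time.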

Additional observations from a re-analysis of the deposited data

Results flagged for a closer look

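A sample far from the other 3 of its time was looked for in 72 groups, 18 members at 4 times, and 3 groups passed Dixon's 95% critical value; chance passes about 1 in 20. TNFRSF1A in cow 4 at day 30 was 1.20, with the other cows between 1.92 and 2.01. FAS in cow 3 at day 10 was -0.10, with the other cows between 0.99 and 1.12. TNFRSF11A in cow 1 at day 10 was -6.80, with the other cows between -8.97 and -8.66, and was not well above background on any of these arrays.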

How the results depend on the processing

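Each named difference was recomputed under 28 alternatives, and counts of members also with any probe of a gene, which moved none of them; those for the downstream list were chosen after seeing the data. Of 728 recomputed member differences, 727 kept their direction. Several alternatives could not change it, so this count overstates robustness. TNFRSF13C at day 100 minus day 10 stayed at 1.459 without the cow block, without the dim filter and with only the 8 arrays compared. It also stayed at 1.459 without the day 50 array of cow 1, a time outside that comparison. Most of these members were also named by their test p. TNFSF8 at day 100 minus day 10 became 0.29 (adjusted p = 0.61) with normexp background correction. That correction moved the median difference of all probes at day 100 minus day 10 to 0.25, against -0.07 as reported. At day 30 minus day 10 it moved to 0.11, against -0.01, and among the later times to -0.13, 0.17 and 0.23. The split of called probes at day 100 minus day 10 was 1423 higher and 553 lower with normexp and 629 and 824 with quantile normalization, against 482 and 1045 as reported; at day 50 minus day 10 it was 302 and 313 with normexp, against 197 and 350. The 1 member called at day 100 minus day 10 became 0 with no replicate block for the cow, with no filter on dim probes and with only the 8 arrays compared, 2 with normexp (TNFRSF13C and TNFRSF1B), 3 with array weights (TNFRSF1B, TNFRSF21 and TNFSF8), 0 to 1 without a cow and 0 to 4 without an array. With array weights, whose estimate did not fully converge, 6 members were called at day 50 minus day 10 and 4 by the F test, which called 1 with normexp. Over all 33182 tested probes, array weights called 5229 at day 50 minus day 10 and 2795 by the F test, against 547 and 342 as reported. At day 100 minus day 10 array weights called 2755 of them and normexp 1976, against 1527. The F test called 552 with normexp. The replicate block changed no other call of a member. For the downstream list, array weights gave 1 call at day 30 minus day 10 and 16 at day 50 minus day 10, and the 8 arrays alone gave 0 at day 100 minus day 10. Without 1 cow or array its calls lay between 0 and 1 for day 30, 0 and 5 for day 50 (0 and 2 without a cow), and 0 and 11 for day 100 (0 and 8 without a cow). Over all tested probes, array weights called 514 at day 30 minus day 10, against 139 as reported. The 8 arrays alone called 44 probes at day 100 minus day 10. Members near background (9 of 16 arrays for TNFSF8, 4 for CD27) are limited by signal; the cause of each change was not tested.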
